A study of Mus musculus with 27 samples.

Results

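The entries described here are the cytosolic ribosomal proteins of the mouse, 86 of the 23420 gene symbols in a table of 3′ tag counts. They were chosen by name: symbols that begin with Rps or Rpl and a number, and Rpsa, Rplp0, Rplp1 and Rplp2, without the Rps6k kinases and without symbols marked as pseudogenes. Of the 86 entries, 77 were canonical ribosomal proteins, 46 of the large and 31 of the small subunit. The others were 6 paralogs (Rpl10l, Rpl22l1, Rpl36al, Rpl39l, Rpl3l and Rps27l), 1 gene copy (Rps4y2) and 2 genes whose names match but whose products are not ribosomal proteins (Rpl7l1 and Rps19bp1). Fau, whose product is a fusion that releases a ribosomal protein, carries another name and was counted with the translation factors.

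All mice were of the C57BL/6 strain and drank either water (control) or 15% ethanol, described as chronic, for 8 weeks. Their age was not stated in those sources. Tissue was taken from the colon and from the jejunum (a stretch of the small intestine between duodenum and ileum), and organoids were made from both, which are cultures grown from epithelial stem cells by the method of Sato and Clevers. Of the 27 libraries, 12 came from organoids (from colon 2 per treatment, from jejunum 4 per treatment) and 15 from tissue (colon, 4 per treatment; jejunum, 3 of controls and 4 with ethanol). The ethanol was given to the mice; whether the organoid cultures also received it was not stated. The libraries of a group carry separate donor numbers, and where these are not separate mice, the p-values measure only the spread between these samples.

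The ribosome reads messenger RNA and joins amino acids into protein. Its small subunit decodes the message, its large subunit forms the peptide bonds, and each subunit is built from ribosomal RNA and one copy of most ribosomal proteins. The messenger RNAs of these proteins begin with a short run of pyrimidines (the 5′ terminal oligopyrimidine or TOP tract), through which growth signals control their translation together. In the intestinal epithelium, crypt stem and progenitor cells are known for a high rate of ribosome production.

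Levels are given as CPM, counts scaled to the same total per library (1000000) with Rn45s, the precursor of ribosomal RNA, left out of the total. Counts outside Rn45s ranged from 684906 to 7606668 per library, and control colon organoid library 2 was the shallowest organoid library with 818240. Rn45s took 18.3 to 48.3% of the counts in organoids and colon tissue, against 76.3 to 84.3% in control and 53.4 to 80.8% in ethanol jejunum tissue. Markers bore out the labels in part: the epithelial list was present in all libraries, fibroblast markers summed to at most 6.19 CPM in jejunum and 17.8 to 116 CPM in colon organoids, and smooth muscle markers reached 24270.0 CPM in colon tissue against 166 CPM or less in organoids. Control colon organoid library 2 had the highest sums of fibroblast (116 CPM) and of lymphocyte and plasma cell markers (78.2 CPM) among the organoids. Tissue libraries thus hold several cell types, and in them fewer cells of a type and less RNA per cell cannot be told apart.

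A 3′ tag yields 1 count per transcript whatever its length, so no scaling by length is needed, but levels of different entries are uncertain where 3′ ends are shared. With that limit, the most abundant entry was Rps20, a small subunit protein, with a mean of 2285 CPM over the 8 groups. Other abundant entries were the stalk protein Rplp1 with 1858 CPM, the large subunit protein Rpl32 with 1719 CPM and the small subunit protein Rps9 with 1441 CPM. The 11 most abundant entries held 50.4% of the summed level of all 86. At least 1000 CPM was reached by 8 entries, at least 100 CPM by 48, at least 10 CPM by 75 and at least 1 CPM by 81. At the low end, Rpl26 had no count in any of the 27 libraries, and Rps27 had a mean of 0.0568 CPM, Rpl30 of 0.0590 CPM and Rpl34 of 0.194 CPM.

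The products of these 4 genes are core parts of every cytosolic ribosome, and their transcripts share their 3′ ends with other genes. Each transcript's last 300 bases were broken into stretches of 50 bases, and the share of stretches found in no other annotated gene was counted. The median was 45.8% for the 77 canonical ribosomal proteins and 100% for 22947 other genes. All stretches were unique in 23 of the 77, and none in 4 (Rpl10, Rpl36a, Rpl9 and Rps27). The 6 proteins below 10% uniqueness had a median level of 24.0 CPM, the 35 between 10 and 50% had 89.5 CPM, the 9 between 50 and 90% had 391 CPM and the 27 with at least 90% had 345 CPM. Across the 77 genes, the Spearman correlation of uniqueness and level was 0.40, a description over genes of the same libraries. Several genes stood against that order. Rpl10 had 958 CPM and no unique stretch, and Rplp1 had 1858 CPM with 33.1% unique. In the other direction, Rpl28 had 3.01 CPM with all stretches unique and Rps7 had 6.21 CPM with 92.0% unique. How reads that match several genes were assigned was not given, so absolute levels between ribosomal proteins are uncertain. The tests below are within 1 entry across groups, and ratios or ranks between entries carry this limit. Reads of the sharing genes can also change between groups, so tests of entries with shared ends carry it too. Among entries named below, for example, the unique share was 10.8% in Rpl36, 16.7% in Rps6, 18.7% in Rpl24 and 21.9% in Rps2. In Rpl38 the unique share was 34.7%, in Rps26 37.5%, in Rpl17 43.4% and in Rpl29 48.2%. It was 100% in Rpl4, Rpl5 and Rpl31.

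**Figure D1:**
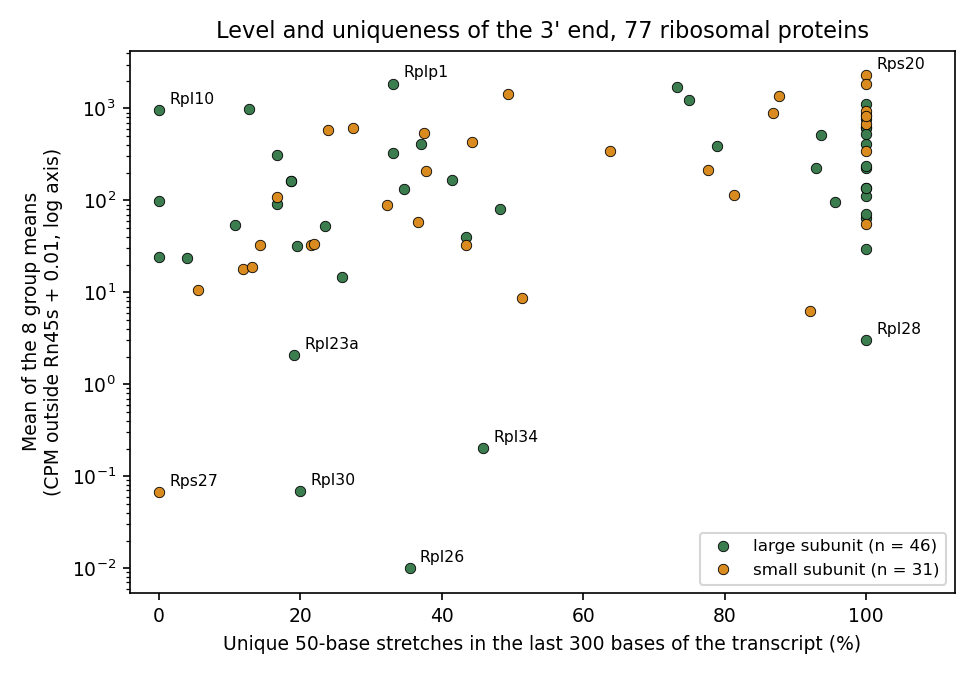
Each dot is 1 of the 77 canonical ribosomal proteins; the x axis gives the share of 50-base stretches in the last 300 bases that are unique among annotated transcripts, and the y axis the mean of the 8 group means in CPM plus 0.01 on a log scale. Entries at or near 0 CPM, such as Rpl26 and Rps27, lie below 50% uniqueness, while Rps20 is fully unique and has the highest level.

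Some reads of members may also stand under other symbols. Rps19-ps3, a processed pseudogene that shares 3′ stretches with Rps19, had a mean of 262 CPM, against 32.7 CPM for Rps19 itself. Gm15421, a pseudogene that shares stretches with the paralog Rpl22l1, had 217 CPM against 279.7 CPM. In all, 9 pseudogene entries of the table shared a stretch with 8 members. Rps15a-ps6, with 399.8 CPM, was a further pseudogene entry of high level.

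Summed over the 86 entries, jejunum organoids gave the largest share of their counts to ribosomal proteins and jejunum tissue the smallest. The share of counts outside Rn45s was 6.43, 5.93, 5.87 and 6.79% in control jejunum organoids (mean 6.25 ± 0.437%, SD, n = 4) and 5.83, 5.36, 5.58 and 5.44% in ethanol jejunum organoids (5.55 ± 0.207%, n = 4). Every ethanol library of jejunum organoids lay below every control library, with a narrow gap. Colon organoids had 3.21 and 2.48% in controls (2.85 ± 0.517%, n = 2) and 2.48 and 1.61% with ethanol (2.04 ± 0.614%, n = 2), where the upper ethanol and the lower control library nearly touched.

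In tissue the order of the segments was the opposite. Colon tissue had 2.74, 2.18, 2.20 and 2.55% in controls (2.42 ± 0.273%, n = 4) and 3.01, 4.20, 2.47 and 2.27% with ethanol (2.99 ± 0.870%, n = 4). Jejunum tissue had 1.20, 1.59 and 1.10% in controls (1.30 ± 0.255%, n = 3) and 1.94, 1.44, 1.25 and 1.57% with ethanol (1.55 ± 0.289%, n = 4). Ethanol and control libraries overlapped in both tissues. With effective (TMM-scaled) library sizes, control colon tissue stood above control colon organoids, at 1.28 against 1.18%, while the jejunum organoid groups stayed highest and the jejunum tissue of controls lowest.

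**Figure D2:**
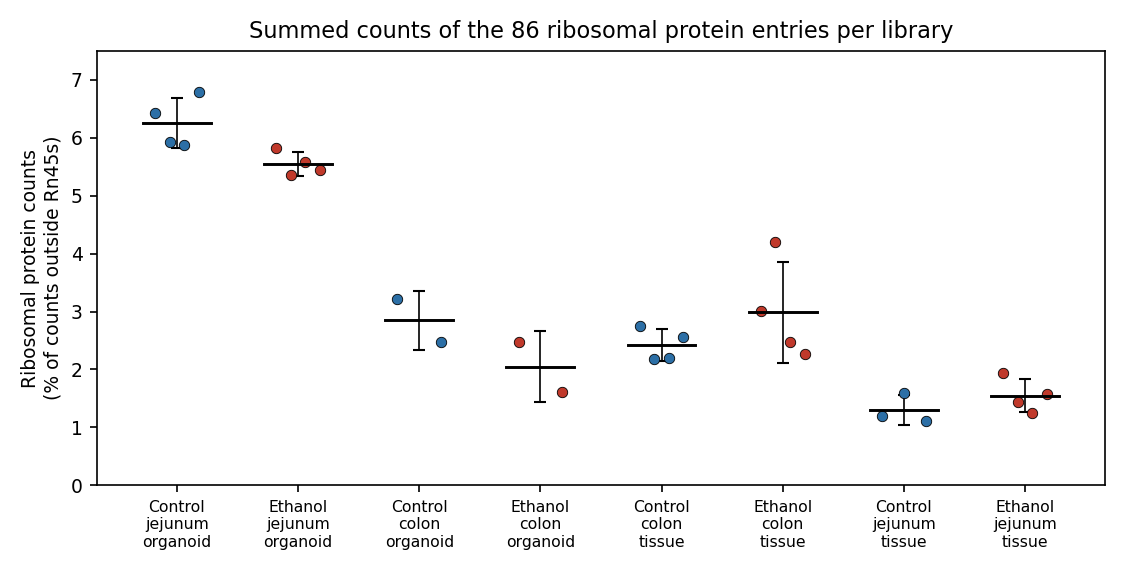
Points are libraries, horizontal lines the group means and vertical bars 1 SD; the y axis is the summed count of the 86 entries in percent of counts outside Rn45s. The 8 jejunum organoid libraries lie between 5.36 and 6.79%, and the 7 jejunum tissue libraries between 1.10 and 1.94%.

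Large and small subunit entries did not keep a fixed ratio. Every entry was summed by its name, also the paralogs, the copy Rps4y2, Rpl7l1 and Rps19bp1. The summed large subunit level was 1.22 times the small subunit level in control and 1.20 times in ethanol jejunum organoids, 1.20 times in control and 1.07 times in ethanol colon organoids, 1.14 and 1.18 times in control and ethanol colon tissue, and 1.01 and 0.994 times in control and ethanol jejunum tissue.

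Most entries followed the sum. Of 75 entries with at least 10 CPM, 38 had a Pearson correlation of at least 0.9 with the sum over the 8 group means, with a median of 0.90; the sum contains the entries, so this describes their likeness only. Of 81 entries with at least 1 CPM, 62 were highest in control jejunum organoids and 7 in ethanol jejunum organoids, whereas 8 were highest in control colon organoids, 1 in ethanol colon organoids and 3 in ethanol jejunum tissue. The lowest group was control jejunum tissue for 36, ethanol jejunum tissue for 22 and ethanol colon organoids for 17 of them.

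**Figure D3:**
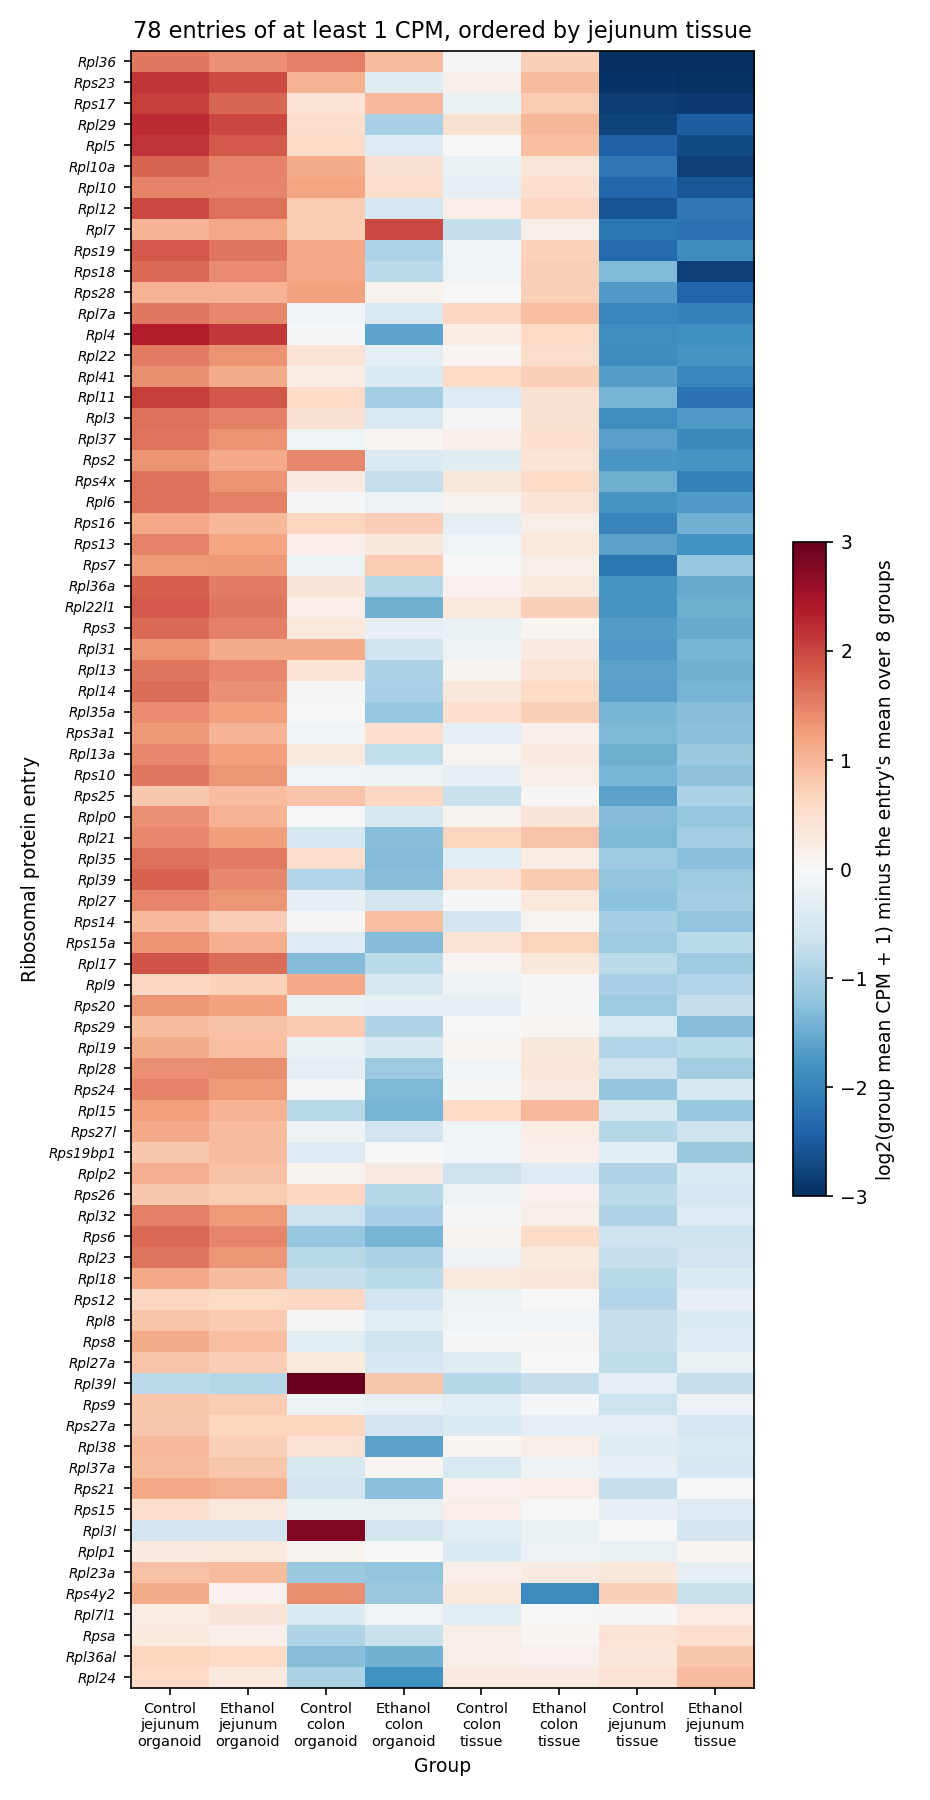
Rows are 78 of the 81 entries of at least 1 CPM and columns the 8 groups; colour is log2 of the group mean CPM plus 1, minus the entry's mean over the groups, with the colours capped at 3 either way. Most rows are red in both jejunum organoid columns and blue in both jejunum tissue columns; Rpsa, Rpl24 and Rpl36al, which have little contrast there or the opposite one, stand at the end of the order.

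Since most entries followed the sum, their promoters were read from RefSeq's table for GRCm38.p6, which gives 250 bases before to 50 bases after each start and matched 65 of the 86 entries. The pyrimidine letters CTTTCC were searched on the sense strand from 20 bases before to 50 bases after the start. They were present in 19 of the 65 members (29.2%) and in 3.79% of all genes of that table. The letters CCGGAAG, the core of sites bound by ETS factors, were searched on both strands over the 300 bases and found in 26 members (40%) and in 9.93% of all genes. Within the 60 bases before the start they stood in 8 members (12.3%) and in 4.015% of all genes. The TATA box letters TATAAA, on both strands over the 300 bases, were found in 7 members (10.8%) and in 15.7% of all genes.

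With CTTTCC in capitals, 4 short windows are shown so that the letters counted can be seen in their surroundings; each is 30 bases, 5′ to 3′ on the gene's strand, in GRCm38.p6. They come from Rpl4 at chr9:64173358-64173387 on the plus strand, Rpl13a at chr7:45128719-45128748 on the minus strand, Rpl36al at chr12:69184019-69184048 on the minus strand and Rpl35a at chr16:33056472-33056501 on the plus strand.
Rpl4: caagtgacaagtCTTTCCttttcctgtggg
Rpl13a: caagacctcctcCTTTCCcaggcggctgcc
Rpl36al: ctctgttcgtccCTTTCCtgttcggcgcgt
Rpl35a: gcttgccttcctCTTTCCgccatcttggcg
Counted from the RefSeq start, the first base of CTTTCC was at −17 in Rpl4, 10 in Rpl13a, 32 in Rpl36al and 32 in Rpl35a. In none of the 4 did the marked letters begin at that start, where a TOP tract begins. Starts differ between annotations: GENCODE begins Rpl4 at chr9:64173375, the last base of its marked letters, followed by further pyrimidines. The windows therefore do not settle whether a transcript begins with such a tract. Rpl36al, whose levels followed the sum least closely among these 4, carried the same letters as Rpl4, which followed it. The next 3 windows are the 60 bases before the start, with CCGGAAG in capitals, of Rps3a1 at chr3:86142669-86142728 on the minus strand, Rpl41 at chr10:128549169-128549228 on the minus strand and Rpl38 at chr11:114668520-114668579 on the plus strand.
Rps3a1: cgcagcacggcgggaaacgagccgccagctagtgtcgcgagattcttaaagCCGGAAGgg
Rpl41: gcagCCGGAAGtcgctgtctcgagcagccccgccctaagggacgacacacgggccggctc
Rpl38: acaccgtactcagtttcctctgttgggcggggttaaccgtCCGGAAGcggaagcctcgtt
A match is a description of letters and shows no binding.

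The first comparison asked how ribosomal protein expression differed between colon and jejunum in organoids. In controls 60 of 79 tested entries were lower in colon organoids and none was higher (edgeR quasi-likelihood test, adjusted p under 0.05), where 26.1% of all genes tested were called lower and 23.8% higher. The median log2 fold change was −1.48 over the entries and −0.10 over all genes. Counted here and below without Rpl7l1 and Rps19bp1, large subunit genes were lower in 37 of 45 and small subunit genes in 21 of 32. In ethanol organoids, which are separate libraries, 61 entries were lower and none higher, against 20.3% of all genes called lower and 25.6% higher, with medians of −1.73 and 0.07. The lists of lower entries had 52 in common, 86.7% of the control list and 85.2% of the ethanol list.

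Rps6, the small subunit protein phosphorylated by S6 kinases, was among the most different entries. It had 29.5 and 42.8 CPM in control colon organoids against 273, 248, 236 and 305 CPM in control jejunum organoids. The groups lay far apart, and the log2 fold change was −3.20 ± 0.24 (SE, adjusted p = 2.55e-06). Rpl4, a large subunit protein that lines the exit tunnel, had 744 and 508 CPM against 3161, 3223, 3175 and 3610 CPM. All colon libraries were below all jejunum libraries, by −2.66 ± 0.26. With ethanol Rpl4 had 243 and 188 CPM in colon organoids against 2802, 3130, 3036 and 2308 CPM in jejunum organoids, a fold of −3.75 ± 0.27. The drop was again free of overlap.

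Rpl39, a small protein at the tunnel exit, was lower in colon organoids of controls by −2.85 ± 0.50 (adjusted p = 0.000727), with 256 and 50.1 CPM against 862 to 1007 CPM. Rpl17 was lower by −3.27 ± 0.77, with 21.6 and 0 CPM against 97.0 to 116 CPM. Rpl23a had the most negative fitted fold but 1 count in all in control colon organoids against 73 in control jejunum organoids, a ratio of pooled rates of 11.3 (exact 95% interval 1.96 to 452, counting error only). Not all entries were called. Rps14 had 430 and 268 CPM against 253 to 377 CPM in ethanol organoids (0.10 ± 0.27, adjusted p = 0.789).

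With the donor number as a block, 36 entries instead of 60 were called in controls and 36 instead of 61 in ethanol organoids. Under limma-voom with weights per group 14 were called in controls. The crypt stem cell markers moved along with the segment as a sum, with 196 to 494 CPM in colon organoids and 942 to 1349 CPM in jejunum organoids. The cycling cell markers summed to 308 to 1035 CPM and 979 to 1485 CPM, with overlap. The stem cell gene Lgr5 had similar means in controls, 24.1 CPM in colon and 24.0 CPM in jejunum organoids, and 9.38 and 16.7 CPM with ethanol. Mki67, a gene of cycling cells, had means of 82.8 and 106 CPM in controls and 46.7 and 136 CPM with ethanol. The part of these values in the result was not tested.

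In tissue the direction between the segments turned. Of 79 entries, 41 were higher and 2 lower in colon than in jejunum tissue of controls, where 25% of all genes were called higher and 17.1% lower. With ethanol 47 were higher and 7 lower, where 26% and 22.1% of all genes were. Of the higher entries 39 were in common, 95.1% of the control list and 83.0% of the ethanol list. The median log2 fold change of the entries was 0.82 in controls and 0.95 with ethanol, beside 0.36 and 0.17 over all genes. Without TMM factors the medians of all genes moved to 0.79 and 0.73 and those of the entries to 1.21 and 1.51, with 49 higher and 0 lower entries in controls and 58 higher and 3 lower with ethanol. The share of higher among all called genes then went from 59.5 to 77.3% in controls and from 54.0 to 77.8% with ethanol. Crypt stem cell markers summed to 621 to 912 CPM in control colon tissue and 199.99 to 321 CPM in control jejunum tissue, cycling cell markers to 382 to 744 CPM and 159.6 to 439 CPM, and smooth muscle markers to 4538 to 18443 CPM and 924 to 3364 CPM; their part in the result was not tested.

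Rps23, a small subunit protein near the decoding site with 87.6% of its stretches unique, was higher in colon than in jejunum tissue in both treatments. Control colon tissue had 1071, 841, 647 and 786 CPM and control jejunum tissue 24.7, 194 and 72.2 CPM, and with ethanol the values were 1508, 2084, 1038 and 1143 CPM against 43.3, 169, 97.4 and 70.1 CPM. The fold was 2.78 ± 0.53 in controls and 3.35 ± 0.48 with ethanol. Rpl36 followed with 3.004 ± 0.61 and 3.49 ± 0.46, and Rpl29 with 3.49 ± 1.07 and 3.07 ± 0.77. Jejunum tissue libraries varied widely in these genes: Rpl29 was at 0 in control library 1 and ethanol library 1 and at 14.6 CPM in control library 2, and the call of Rpl29 in controls was lost without jejunum library 1 or without jejunum library 3. Without control jejunum library 1, 29 instead of 43 entries were called.

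A small set ran the other way. The stalk protein Rplp1, which with Rplp2 recruits elongation factors, had 1876, 1459 and 1491 CPM in control jejunum tissue against 1413, 1076, 1516 and 1487 CPM in control colon tissue, with overlap of the groups (−0.66 ± 0.25, adjusted p = 0.0412). Its call was lost without TMM factors (−0.23) and in 5 of 7 fits that left out 1 library. Rpl7l1, a relative of Rpl7 that acts in ribosome assembly, was lower in colon in both treatments, by −0.79 ± 0.20 and −0.81 ± 0.18, and was not called without TMM factors. In ethanol tissue Rpsa, Rpl24, Rpl36al, Rplp2 and Rps4y2 were also called lower in colon.

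Rpsa, the laminin receptor precursor that joins the small subunit late, had overlapping levels in control jejunum tissue and organoids. It had 1652, 1155, 849 and 856 CPM in ethanol jejunum tissue and 1008, 1145, 665 and 464 CPM in ethanol colon tissue. The ranges overlapped, the fold was −1.02 ± 0.26 (adjusted p = 0.00353), and without TMM factors it was −0.46 and not called. All 50-base stretches of Rpsa were unique. Rplp2 was called lower only narrowly (−0.52 ± 0.21, adjusted p = 0.0481), and its sign turned to 0.03 without TMM factors.

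**Figure D4:**
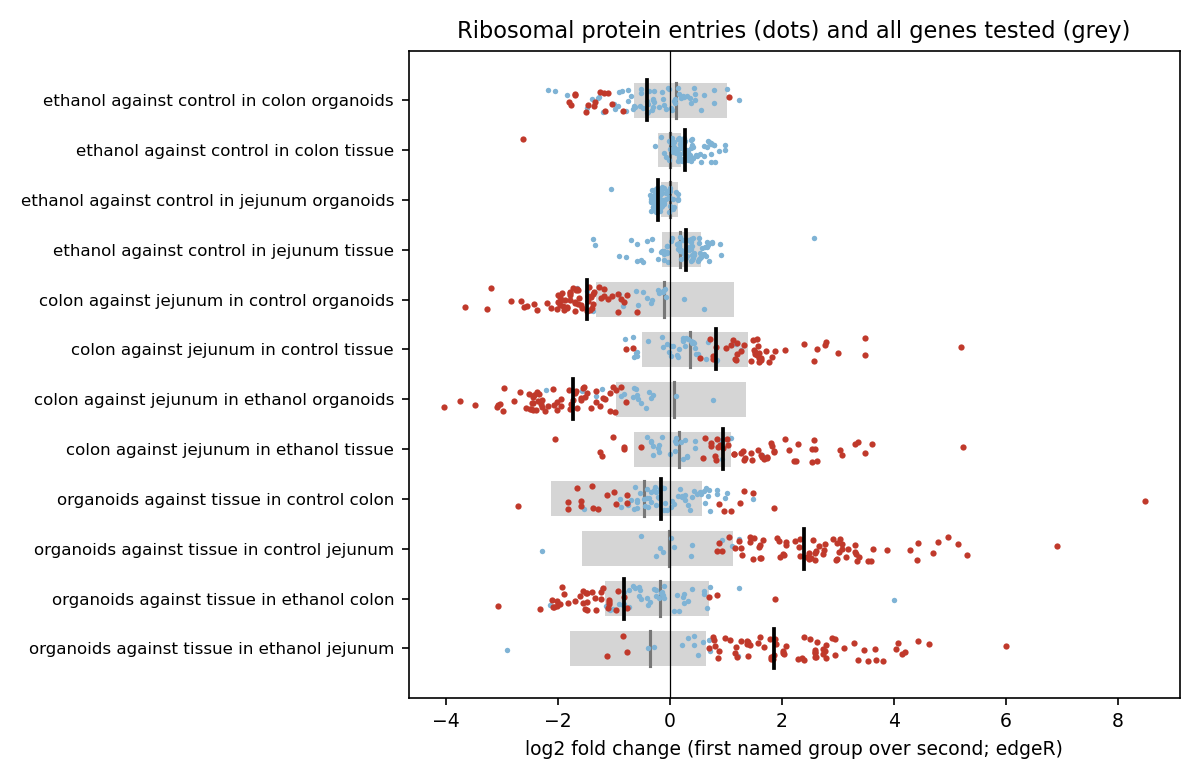
Each dot is a ribosomal protein entry, red when called and blue when not, with a black line at their median; grey bars give the middle 50% of all genes tested with their median, and the x axis is the log2 fold change of the first over the second named group. The entries lie left of all genes in colon against jejunum organoids and right of them in organoids against tissue of the jejunum.

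Organoids were then compared with the tissue of the same segment. In jejunum controls 68 of 80 entries were higher in organoids and none was lower, where 21.6% of all genes were called higher and 29.7% lower, and the median was 2.39 beside −0.02 for all genes. With ethanol 65 were higher, against 18.8% of all genes, and 3 lower, against 35.2%, with medians of 1.86 and −0.36. The higher lists had 64 entries in common, 94.1% and 98.5% of them. The entries with less than 50% unique stretches had a median of 2.59 in controls (31 of 37 higher) and those with at least 90% a median of 2.44 (26 of 27 higher). In these control libraries crypt stem cell markers summed to 946 to 1349 CPM in organoids and 199.99 to 321 CPM in the tissue, cycling cell markers to 979 to 1485 CPM and 159.6 to 439 CPM, and Rn45s took 19.7 to 23.4% and 76.3 to 84.3% of the counts; their part in the result was not tested.

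Among single genes, Rps23 rose from the tissue values above to 3622, 3050, 3010 and 3455 CPM in control jejunum organoids, without overlap, by 4.79 ± 0.50 on the log2 scale. Rpl5, which with Rpl11 and 5S ribosomal RNA can hold back Mdm2, had 1593, 1370, 1211 and 1487 CPM against 29.0, 97.8 and 47.0 CPM. All organoid libraries exceeded all tissue libraries, and its fold was 4.29 ± 0.39. Rplp0, which anchors the stalk, had 1707, 1582, 1519 and 1890 CPM against 202, 375 and 213 CPM.

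Few members were not called in the jejunum. Rpsa had 1020, 916, 872 and 1049 CPM in control organoids and 929, 1172 and 1042 CPM in the tissue (−0.51 ± 0.24, adjusted p = 0.0754). Rpl36al had 357, 336, 358 and 373 CPM against 372, 253 and 247 CPM (−0.12 ± 0.29, adjusted p = 0.783). Rpl24 had 195 to 226 CPM against 175 to 216 CPM (−0.25 ± 0.26), and Rplp1 had 1919 to 2444 CPM against 1459 to 1876 CPM (0.06 ± 0.25). None of these 4 passed the test. The mean CPM of Rpl36al (356 against 291) and Rpl24 (211 against 189) was higher in organoids, while their fitted folds, which use TMM-scaled library sizes, were negative. For Rplp1 all organoid libraries lay above all tissue libraries in CPM. In ethanol mice Rpl24 was called lower in organoids by −1.12 ± 0.24, Rpsa by −0.85 ± 0.22 and Rpl36al by −0.77 ± 0.27; the calls of Rpsa and Rpl36al were lost without TMM factors.

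In the colon, organoids and tissue differed less and in both directions. In controls 8 entries were higher and 14 lower in organoids, where 14.5% of all genes were called higher and 31.7% lower, and the medians were −0.17 for entries and −0.46 for all genes. This split turned with the scaling: it was 16 higher and 11 lower with DESeq2, 18 and 8 without TMM factors and 10 and 10 with Rn45s removed first, and the median of the entries was 0.02 with DESeq2 and 0.18 without TMM factors. The split was 9 and 31 without control colon organoid library 1 and 13 and 5 without control colon organoid library 2. No entry was called under limma-voom. With ethanol 3 were higher and 34 lower, where 14.6% and 18.7% of all genes were, with medians of −0.82 and −0.19, and the calls went from 37 to 13 without ethanol colon organoid library 2 and to 24 without ethanol colon tissue library 2. Of the lower entries, 12 were in common, 85.7% of the control list and 35.3% of the ethanol list.

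Among those 12, Rps6 had 29.5 and 42.8 CPM in control colon organoids against 121, 67.9, 73.2 and 90.5 CPM in the tissue (−1.67 ± 0.30), and 26.4 and 34.2 CPM against 120, 186, 94.9 and 75.3 CPM with ethanol (−1.94 ± 0.30). The ranges were apart in both. Rpl15 was lower by −1.82 ± 0.44 and −2.32 ± 0.44. On the higher side, Rps2 was higher by 1.48 ± 0.33 and Rpl36 by 1.25 ± 0.38 in controls. Rps25 was called higher by 1.32 ± 0.45, but without control colon organoid library 1 its fold was −0.79.

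The effect of ethanol in colon organoids was tested between 2 libraries a group. The control libraries had 11780 and 9951 genes detected, at 2036195 and 818240 counts outside Rn45s. With ethanol there were 15383 and 13542 genes, at 2843857 and 1345224 counts. This difference went along with the treatment, and its part in the result was not tested. Of 79 entries, 14 were lower with ethanol and 1 was higher, where 5.19% of all genes were called lower and 12.1% higher. The lower ones were 9 of 45 large and 5 of 32 small subunit genes. The median was −0.42 over the entries and 0.11 over all genes. In 33 entries both ethanol libraries lay below both controls, against 18.8% of all genes. Without TMM factors 26 entries were lower and none higher, the median of all genes moved to −0.07 and that of the entries to −0.64, and the share of higher among all called genes went from 70.0 to 55.2%.

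Rps2, a small subunit protein at the messenger RNA entry site, had 66.8 and 69.7 CPM in controls and 18.6 and 17.1 CPM with ethanol. The pairs were tight and far apart, and the fold was −1.70 ± 0.31 (adjusted p = 0.00395). Rpl38, a large subunit protein known for its part in the translation of Hox messages, had 169 and 155 CPM against 57.0 and 20.1 CPM (−1.80 ± 0.38, adjusted p = 0.00812). Rps26 had 676 and 843 CPM against 331 and 207 CPM (−1.25 ± 0.24). Rpl31 had 164 and 290 CPM against 80.5 and 55.8 CPM (−1.46 ± 0.28). In each of these 4 genes all ethanol values lay under all control values, and the call held in all 4 fits that left out 1 colon organoid library.

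The most abundant of the lower entries was Rps23, with 1748 and 1332 CPM in controls and 766 and 404 CPM with ethanol (−1.18 in log2, called). Rpl4 fell from 744 and 508 CPM to 243 and 188 CPM (−1.33 ± 0.26). The calls of Rps23 and Rpl4 were lost without ethanol library 2. The single higher entry, Rps14, a small subunit protein known from the 5q− syndrome, had 235 and 152 CPM in controls and 430 and 268 CPM with ethanol (1.05 ± 0.32, adjusted p = 0.0432). Its ethanol values lay above its controls, and its call was lost without TMM factors (0.84), without control library 2 and without ethanol library 1. Rps20 had 2192 and 1195 CPM against 1847 and 1441 CPM and Rplp1 had 2715 and 1245 CPM against 1991 and 1701 CPM, in each case with overlap.

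These calls rested on few libraries. The count of entries called went from 15 to 7 without ethanol library 2, 27 without ethanol library 1, 32 without control library 2 and 39 without control library 1, and to 31 without both libraries numbered 2, a setting chosen after the data were seen. The direction turned without control library 1, where 25 entries were higher and 14 lower with ethanol, while it was 27 lower and 0 higher without ethanol library 1 and 32 lower and 0 higher without control library 2. It was 0 under limma-voom with weights per group and 0 when only these 4 libraries were fitted, and 25 with DESeq2. In the same libraries crypt stem cell markers summed to 463 and 494 CPM in controls and 254 and 196 CPM with ethanol, colonocyte markers to 1048 and 2620 CPM and 8546 and 12707 CPM, and macrophage markers to 86.4 and 19.6 CPM and 447 and 115 CPM; their part was not tested.

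In jejunum organoids no entry was called with ethanol, where 0% of all genes were. At an unadjusted p under 0.05 there was no entry either, against 1.11% of all genes, and DESeq2 and limma-voom called none. The fold was negative in 69 of 79 entries with a median of −0.21, beside 0.00 over all genes. In 16 entries the 4 ethanol libraries lay below the 4 controls, against 1.97% of all genes, and in none above, against 1.39%. Rplp0 was one of the entries with the smallest p: 1707, 1582, 1519 and 1890 CPM in controls and 1464, 1358, 1340 and 1203 CPM with ethanol (−0.33 ± 0.19, adjusted p = 1). Its groups did not overlap, while the fold was within 2 standard errors of 0.

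The ethanol effect was more negative in colon than in jejunum organoids for 3 entries and more positive for none (test of the difference, adjusted p under 0.05), where 2.23% of all genes were called lower and 7.2% higher. These were Rps2 with a difference of −1.49 ± 0.36 (adjusted p = 0.0245), Rps26 with −1.20 ± 0.29 (adjusted p = 0.0258) and Rpl31 with −1.20 ± 0.34 (adjusted p = 0.0450). In jejunum organoids Rps2 had 68.2, 69.1, 66.3 and 55.0 CPM in controls and 71.7, 56.0, 48.8 and 46.3 CPM with ethanol, so that the groups overlapped. With DESeq2 2 entries were higher and 13 lower, and without both colon libraries numbered 2 there were 26 calls. With the donor number as a block none of the 3 was called (adjusted p = 0.0554 for Rps26, 0.0588 for Rps2 and 0.120 for Rpl31), and limma-voom called none. The number joins different mice across treatments, so the block can stand for a shared mouse only within a treatment. The direction of this difference also turned with single libraries: 25 entries were higher and 8 lower without control colon organoid library 1, and 3 were higher and 0 lower without ethanol colon organoid library 2.

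In colon tissue the one entry called with ethanol was Rps4y2, which was also the single gene called of all tested (0.00744%). It is a copy of Rps4x, annotated as Rps4l, a transcribed processed pseudogene at chr6:148354656-148355598 on the plus strand of GRCm38, while its parent Rps4x lies at chrX:102184941-102189394 on the minus strand. At its 3′ end 82.5% of the stretches were unique, the others were shared with Rps4l-ps, and none of 251 was found in Rps4x. Only exact matches of 50 bases were sought. How reads with mismatches were assigned was not given, so some reads may still cross between copy and parent. The other entries leaned upward with ethanol: the fold was positive in 72 of 79, with a median of 0.26 beside −0.00 over all genes. In 13 entries the ethanol libraries lay above the controls, against 2.38% of all genes. Ethanol colon tissue library 2 had the highest sum of ribosomal proteins in that tissue, 4.20%, and also the highest sums of cycling (1035 CPM) and crypt stem cell markers (1059 CPM). Colonocyte markers summed to 3840, 34814, 25213 and 30155 CPM in controls and to 5068, 4168, 21070 and 21898 CPM with ethanol. Control library 1 and ethanol libraries 1 and 2, low in these markers, had the highest ribosomal protein shares of their groups (2.74, 3.01 and 4.20%). The part of these marker differences was not tested.

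Rps4y2 was at 9.61, 22.1, 15.9 and 19.5 CPM in control colon tissue and at 2.50, 2.77, 2.88 and 3.08 CPM with ethanol. The 4 ethanol libraries were close to each other and below all controls, and the fitted log2 difference was −2.62 ± 0.40 (adjusted p = 0.0383, edgeR). Its parent had 235, 132, 160 and 250 CPM in controls and 196, 381, 160 and 174 CPM with ethanol, with full overlap (0.18 ± 0.42). Leaving out any 1 of the 8 libraries except control library 1 moved the adjusted p of Rps4y2 past 0.05, and it ran from 0.00786 to 0.288 over these fits. It was 0.287 with only these 8 libraries in the fit, 0.485 under limma-voom and 2.38e-07 with DESeq2.

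The same copy had lower values with ethanol in the other settings, short of a call. In jejunum tissue it had 25.4, 24.8 and 17.2 CPM in controls and 4.76, 13.0, 8.42 and 5.92 CPM with ethanol, again with no overlap (−1.37 ± 0.41, edgeR adjusted p = 0.214). Colon organoids had 18.2 and 55.0 CPM against 11.3 and 0 CPM (−2.19 ± 1.06, adjusted p = 0.179). Jejunum organoids had 15.3, 28.4, 31.2 and 45.2 CPM against 10.02, 15.8, 28.3 and 4.36 CPM (−1.06 ± 0.67, adjusted p = 1), where the groups overlapped. The effect did not pass the test of a difference between colon and jejunum tissue (−1.25 ± 0.57, adjusted p = 0.724).

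**Figure D5:**
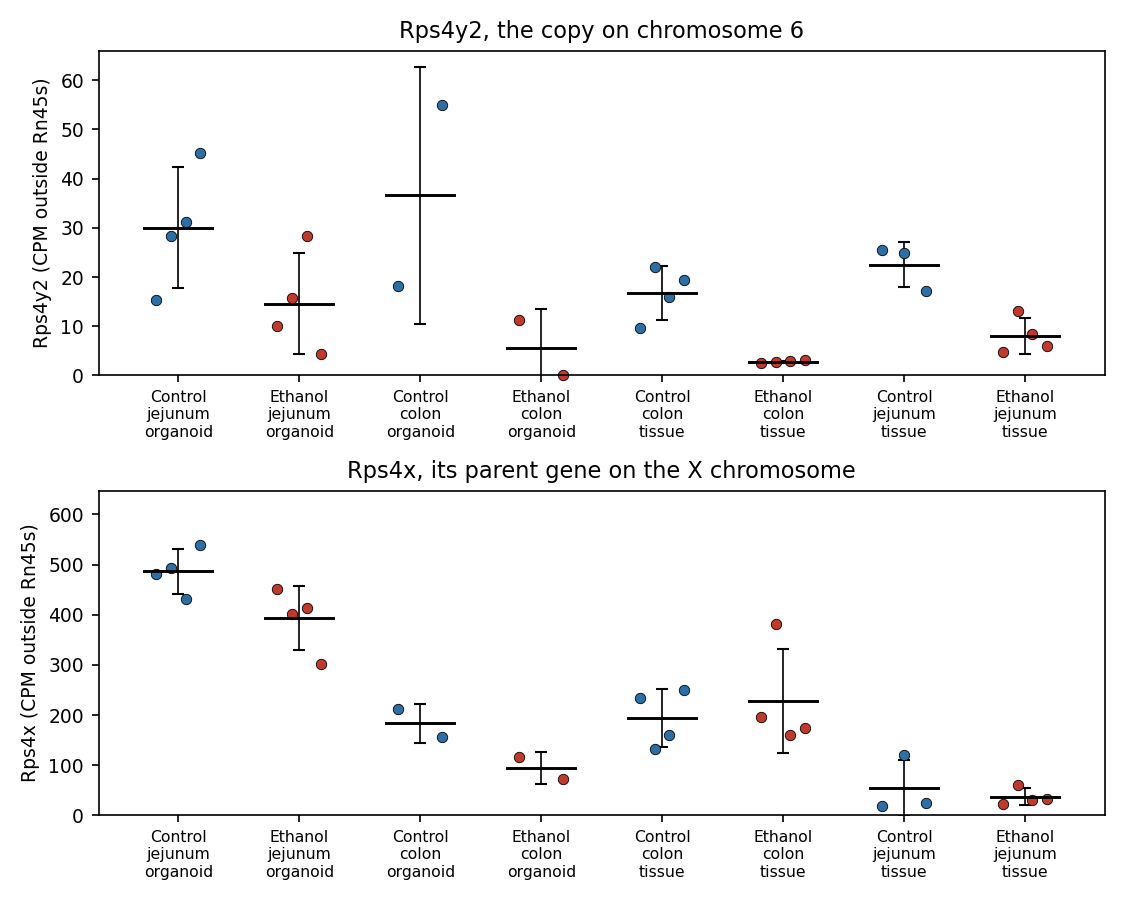
Points are libraries, horizontal lines group means and vertical bars 1 SD, with control in blue and ethanol in red; the upper panel shows the copy Rps4y2 and the lower panel its parent Rps4x, both in CPM outside Rn45s. In both tissues every ethanol library of Rps4y2 lies below every control library, from 2.50 to 3.08 against 9.61 to 22.1 CPM in colon, while Rps4x overlaps.

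In jejunum tissue no entry was called with ethanol (0% of all genes), and 7 had an unadjusted p under 0.05, where 11.4% of all genes had; 5 of the 7 were higher with ethanol, where 9.36% of all genes were. DESeq2 called no entry. The median was 0.29 over the entries and 0.18 over all genes. Rps4y2 was the only entry whose ethanol libraries lay below the controls, against 1.73% of all genes. For the difference of the ethanol effect between colon and jejunum tissue no entry was called by edgeR (0% of all genes) or by DESeq2, and 4 had an unadjusted p under 0.05, where 6.65% of all genes had.

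The paralogs did not all keep step with their parents. Rpl36al was about as abundant as Rpl36a in control colon organoids, with a ratio of 1.02 ± 0.106 (SD, n = 2), and 1.47 ± 0.151 in control jejunum organoids (n = 4). The ratio was 3.43 ± 0.474 in control colon tissue (n = 4), 16.7 ± 6.86 in control (n = 3) and 17.7 ± 8.12 in ethanol jejunum tissue (n = 4). Rpl36a had 21.8, 26.3 and 10.6 CPM in control jejunum tissue, where Rpl36al had 372, 253 and 247 CPM. No stretch of the Rpl36a 3′ end was unique, against 31.1% for Rpl36al, so the ratio can carry reads of other copies.

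Rpl22l1, a paralog that can replace Rpl22, stood at 0.433 to 0.529 of Rpl22 in 6 groups, at 0.326 ± 0.279 in control and 0.182 ± 0.000813 in ethanol colon organoids. The control libraries of colon organoids differed widely, with ratios of 0.523 and 0.129. Rps27l, a p53 target, had a mean of 250 CPM over the groups, while Rps27 had 0.0568 CPM and no unique stretch. Rpl39l and Rpl3l, paralogs known mainly from testis and from heart and skeletal muscle, had 5 counts or fewer in each library but 1. Control colon organoid library 2 held 29 counts of Rpl39l (35.4 CPM) and 15 of Rpl3l (18.3 CPM), and control colon organoid library 1 held none of either. The call of Rpl39l as higher in control colon organoids than tissue rested on library 2. Rpl10l, a paralog known from testis, had 2 counts in all, both in ethanol colon tissue library 4.

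Rps27a, which is made as a fusion with ubiquitin, had a low level of 2.65 to 47.7 CPM in all libraries. Control colon organoid library 2 was the highest there with 47.7 CPM, against 7.86 CPM in control library 1. Rps19bp1, which binds Rps19, was called lower in colon than in jejunum organoids in both treatments, like most true members.

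Other genes of the translation machinery were counted from 5 lists. Of 20 translation factors and other TOP messages, 14 were lower and 1 higher in colon than in jejunum organoids of controls, and 15 lower and 0 higher with ethanol; of all genes 26.1% were lower and 23.8% higher in controls, and 20.3% and 25.6% with ethanol. Eef1a1, the factor that brings aminoacyl-tRNA to the ribosome, had a mean of 1455 CPM in colon and 6370.2 CPM in jejunum organoids (−2.38 ± 0.32, adjusted p = 0.000106). Gnb2l1, the ribosome-bound scaffold RACK1, was lower by −2.02 ± 0.23 and Fau by −1.67 ± 0.32. Eef2, the translocation factor, had 4865 and 3744 CPM (0.10 ± 0.18, adjusted p = 0.670). Mitochondrial ribosomal proteins, which are a separate set, were lower in 51 of 76 and higher in 3 in controls, and lower in 51 and higher in 1 with ethanol.

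Ribosome biogenesis factors were lower in 8 of 31 and higher in 2 between colon and jejunum organoids of controls, and RNA polymerase I and III genes lower in 5 of 22 and higher in 1. Genes for the control of translation were lower in 6 of 20 and higher in 3. The lower shares of these 3 lists were near the 26.1% of all genes. Between jejunum organoids and jejunum tissue of controls, 18 translation factors and other TOP messages were higher and 1 lower. Of the biogenesis factors, 27 were higher and 0 lower, where 21.6% of all genes were higher and 29.7% lower. Npm1, a nucleolar chaperone, had a mean of 1051 CPM in organoids and 49.3 CPM in the tissue (4.11 ± 0.36, adjusted p = 8.71e-10), and Ncl, nucleolin, had 1699.8 and 194 CPM (2.75 ± 0.27). Fbl, the methylase of box C/D particles, was higher by 3.13 ± 0.56. Mitochondrial ribosomal proteins were higher in 38 of 77 and lower in 8.

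Between colon and jejunum tissue of controls, 6 translation factors and other TOP messages were higher and 1 lower. Of 31 biogenesis factors, 7 were higher and 0 lower, near the 25% of all genes called higher. Mitochondrial ribosomal proteins went both ways there, with 15 of 76 higher and 13 lower. Npm1 was higher in colon by 1.98 ± 0.35 (adjusted p = 0.000248) and Eef1a1 by 1.74 ± 0.43, with means of 1922 and 450 CPM. Between colon organoids and colon tissue of controls, 14 biogenesis factors were higher and 2 lower, while 30 mitochondrial ribosomal proteins were lower and 4 higher, beside 14.5% of all genes higher and 31.7% lower. With ethanol in colon organoids, 3 genes of the list of translation factors and other TOP messages were lower (Btf3, Nap1l1 and Npm1). The elongation factors Eef1a1 and Eef2 were not called. Of the biogenesis factors, 5 were lower and 1 higher. Mitochondrial ribosomal proteins were lower in 8 and higher in 6 of 76, and 3 genes for the control of translation and 1 RNA polymerase gene were higher, where 5.19% of all genes were lower and 12.1% higher. Of the higher genes, Mycn, Rps6kb2, Polr3c, Mrpl48, Mrps22 and Mrps33 had 0 CPM in controls and means of 2.52 to 15.4 CPM with ethanol. Of the lower genes, Mrps18b had 0 CPM with ethanol and a mean of 13.4 CPM in controls. The size of a fold against 0 CPM is not measured. Btf3, a subunit of the nascent chain complex, was lower by −0.93 (adjusted p = 0.0263) and Gnl3, nucleostemin, by −1.15. In jejunum organoids and in both tissues no gene of the 5 lists was called with ethanol.

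The genes outside the family whose log2 group means were most like the summed ribosomal protein level were sought among 7555 genes of at least 20 CPM, over the 8 groups. They were Rps19-ps3 (Pearson r = 0.994), the initiation factor Eif1ax (0.993), the glutaminyl-tRNA synthetase Qars (0.990), the isoprenoid enzyme Idi1 (0.989), the mitochondrial ribosomal protein Mrpl19 (0.989), the proteasome subunit Psmc6 (0.987), the snoRNA host Snhg6 (0.987) and Dcun1d5 (0.986). Rps19-ps3 had 703 CPM in control jejunum organoids and 52.8 CPM in control jejunum tissue. These are the highest of 7555 values over 8 group means, and they describe likeness only.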

How the data were processed

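The table the authors deposited holds unnormalised counts, 1 value per gene symbol and library, for 27 libraries prepared by QuantSeq 3′ tag sequencing per the labels' protocols. Trimmomatic 0.32, BWA and HTSeq and the genome build mm10 are named per the submitters' processing notes; the settings, and whether reads were counted by strand, are not given in the sources used here, so overlapping or antisense genes may share reads. Groups were taken from the sample titles. The members and lists were chosen with earlier results of these data known.

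The quasi-likelihood test of edgeR 4.0.16 (R 4.3.3) was run with robust fits after filterByExpr and TMM scaling on all genes; p-values were adjusted over all genes kept (Benjamini-Hochberg), and calls needed an adjusted value under 0.05. The 12 organoid libraries, the 15 tissue libraries and, for organoids against tissue, all 27 libraries were fitted together, for 14 comparisons; comparisons that share a group are not independent. Of the 86 entries, 79 passed the filter in the first fits and 80 in the last; Rpl10l, Rpl26, Rpl30, Rpl34, Rpl3l and Rps27 passed in none, and Rpl39l in the last only. A member that passed through the group where it is high had to differ. Libraries of the same group differed by more than sampling noise in all 35 pairs (chi-square per degree of freedom 3.01 to 70.5).

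Donor numbers recur in every group. Within a treatment they may mark the same mouse, while across treatments they cannot. Deviations of same-numbered libraries correlated between −0.109 and 0.149 within a treatment. Across treatments, where the mice differ, they correlated between −0.155 (jejunum organoids) and 0.588 (colon tissue). What same-numbered libraries share across treatments was not tested. Alternatives were DESeq2 1.42.0, limma-voom (limma 3.58.1), no TMM factors, TMM without the members, Rn45s removed first, no filter, a replicate block, only the groups compared, and each library left out. Exact intervals cover counting error only. Genes were named by rule: up to 4 called entries with the highest and lowest fold in each comparison (with fewer, the 3 smallest p in each direction), paralogs, copies and their parents, the stalk proteins, Rpsa, Rps6, Rps27a, the 5 highest and 5 lowest levels, up to 3 called genes in each direction of each list, and the 8 genes most like the sum. Other members named, such as Rps23, Rps26 and Rpl5, were chosen after their values were seen where they fell outside the rule. Some genes that the rule names are not reported here.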

Additional observations from a re-analysis of the deposited data

Results flagged for a closer look

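In groups of 4 libraries the highest or lowest value was set against Dixon's 95% limit for 16 entries and the sums; of 90 groups looked at, 4 had a gap past it, where chance gives about 1 in 20. Ethanol colon tissue library 2 stood above the others of its group in Rps4x, with 381 CPM against 160 to 196 CPM, and in Rps2, with 53.5 CPM against 24.3 to 27.7 CPM; it also had the highest summed level of that group, 4.20%. Control colon tissue library 3 was low in Rpl22l1, with 177 CPM against 258 to 261 CPM. Ethanol jejunum organoid library 4 had a large to small subunit ratio of 1.17, against 1.20 to 1.21 in the others.

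By the test of the difference itself, colon and jejunum organoids differed in their response to ethanol for Rps2 (−1.49), Rps26 (−1.20) and Rpl31 (−1.20 on the log2 scale, colon minus jejunum). Each difference rests on 2 libraries a group in the colon, and none was called under limma-voom with weights per group.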

How the results depend on the processing

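Counts of called entries moved by over 1.5 times as follows. For ethanol in colon organoids (15), the count was 25 with DESeq2, 26 without TMM factors, 0 under limma-voom, 0 with only the 2 groups compared, 31 without both libraries numbered 2 (chosen after seeing the data) and 7 to 39 with 1 library left out. For the difference of the ethanol effect between colon and jejunum organoids (3), it was 15, 12, 0 under limma-voom, 26 without both libraries numbered 2 and 1 to 33 with 1 library left out. For colon against jejunum in control organoids (60), it was 14 under limma-voom and 56 to 69 with 1 library left out, and in ethanol organoids (61) 48 to 63. For ethanol in colon tissue (1), it was 0 under limma-voom, 0 with only the 2 groups and 0 to 1 with 1 library left out. For organoids against tissue in control colon (22), it was 0 under limma-voom, 14 with only the 2 groups and 18 to 40 with 1 library left out, and in ethanol colon (37) 20 under limma-voom and 13 to 37. Leaving out 1 library gave 29 to 44 for control tissue segments (43), 49 to 52 for ethanol tissue segments (54), 64 to 68 and 67 to 69 for jejunum organoids against tissue (68 and 68), and 0 to 0 for the 3 comparisons with no call. With the donor number as a replicate block, both organoid segment comparisons gave 36, the difference of the ethanol effects 1, and colon tissue 0 (Rps4y2, adjusted p = 0.0665); it moved no other count by over 1.5 times. Same-numbered libraries did not all deviate together. Across treatments they come from different mice, so for ethanol against control the block stands for no shared mouse.

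The summed level moved with its denominator. In control and ethanol colon organoids, control and ethanol jejunum organoids, control colon tissue, and control and ethanol jejunum tissue it was 1.92, 1.18, 4.88, 4.22, 1.88, 0.248 and 0.546% of all counts (ethanol colon tissue is not reported here, so the order of all groups is not shown). With effective library sizes it was 1.18, 1.08, 3.36, 2.93, 1.28, 0.908 and 1.16% in the same groups and 1.52% in ethanol colon tissue. With 1 library left out it was 2.48 to 3.21, 1.61 to 2.48, 6.08 to 6.38, 5.46 to 5.61, 2.31 to 2.50, 1.15 to 1.39 and 1.42 to 1.65% in the same order, and 2.58 to 3.23% in ethanol colon tissue. Of 4538 refits of 301 called results, those of genes named by rule and so only part of all calls, 4080 kept call and direction, 456 lost the call and 2 reversed: Rplp2 in ethanol colon against jejunum tissue (0.0315 without TMM factors) and Rps25 in control colon organoids against tissue (−0.79 to 2.12 with 1 library left out, −0.79 without control organoid library 1). The causes were not tested. Depth limits entries with few counts, such as Rps7 in jejunum tissue.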

Other observations

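The ribosomal protein entries also differed in mixture between libraries of the same tissue. Ethanol jejunum tissue library 1 was the highest of its group in Rpsa (1652 CPM against 849 to 1155 CPM), Rplp1 (2820 CPM against 1515 to 1769.7 CPM), Rpl36al (671 CPM against 244 to 421 CPM) and Rpl24 (425 CPM against 177 to 285 CPM). The same library was the lowest of its group in Rps23 (43.3 CPM against 70.1 to 169 CPM), Rpl10 (41.0 CPM against 85.3 to 178 CPM) and Rpl5 (23.3 CPM against 46.4 to 74.4 CPM). Control jejunum tissue library 2 was the highest of its group in Rps23 (194 CPM), Rpl10 (244 CPM) and Rpl5 (97.8 CPM), and it was the shallowest library of all, with 684906 counts outside Rn45s. These genes were chosen after their values were seen.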
